A study of Mus musculus with 2 samples.

Results

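Tmprss2, Klk7, Adh1 and BC053393 are 4 of the 52366 genes in a table of mouse embryos that had developed a cavity from a zygote or from a single blastomere. They were selected on their UMI counts (unique molecular identifiers, the tags that the counting rests on), high in embryos from blastomeres of the two-cell and four-cell stage (2CB and 4CB) and at most a few in embryos from zygotes (1C) or from blastomeres of the eight-cell stage (8CB). Their difference between those groups is the rule of choice and is described without a test. What the rule did not use is the difference between 4CB and 2CB, the spread from embryo to embryo, the neighbouring genes, the promoter sequences and the related gene families.

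RNA of 24 single embryos was measured, 6 each of 1C, 2CB, 4CB and 8CB. All came from oocytes of B6D2F1 females fertilised in vitro with ICR sperm and were collected at 96 h postinsemination, so no group differed in genotype or drug treatment. The 1C embryos had lost the zona pellucida at 5 h, 2CB blastomeres were isolated at 24 h and 4CB and 8CB blastomeres at 48 h. Embryos were taken for having a cavity, whether or not they held an inner cell mass, and nothing states that embryos of 1 group came from separate parents, so p-values measure the spread between these embryos. Embryos of 1C and 8CB were made into 1 library pool and those of 2CB and 4CB into the other, so the pool and the contrast that chose the genes cannot be told apart. In such whole-embryo RNA, fewer cells of a type and less RNA per cell cannot be told apart either.

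Cavitation brings the first epithelium of the embryo, the trophectoderm, which pumps fluid inward and encloses the inner cell mass of epiblast and primitive endoderm. Serine proteases act at the surface of such epithelia and outside the cells, where they cleave channels, receptors, junction proteins and one another under the control of membrane-bound inhibitors. Alcohol dehydrogenases act inside the cell and oxidise ethanol and retinol, the latter being the first step from vitamin A to retinoic acid.

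Tmprss2 encodes a type II transmembrane serine protease, anchored in the membrane near its amino end with the catalytic domain outside the cell. Klk7 encodes a secreted kallikrein with chymotrypsin-like specificity, known from the shedding of skin cells. Adh1 encodes a cytosolic class I alcohol dehydrogenase. BC053393 is a protein-coding gene named here by its clone. The 4 genes lie on 4 chromosomes: in GRCm38 the file places Tmprss2 at chr16:97564684-97611195 on the minus strand, Klk7 at chr7:43811294-43816359, Adh1 at chr3:138260991-138290698 and BC053393 at chr11:46571536-46589232, the last 3 on the plus strand.

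The sequences before the 4 starts are shown because the genes were chosen for a shared pattern. They are RefSeq's, on GRCm38.p6, in the direction of transcription, and all 4 genes matched that table. Capitals mark the motifs found before the start, read on both strands. The starts are those of that table and need not be those of the file. For Tmprss2 the start is the one of the file and of GENCODE M21, but RefSeq's span of the gene runs on to base 97659541, so the bases shown lie inside that span. For BC053393 RefSeq starts the gene at base 46571513, before the file's start. For Adh1, RefSeq starts the gene at base 138277585, inside the span that the file gives it, and the 91 bases nearest to that start lie in an exon of GENCODE M21 and are left out.
Tmprss2 (chr16:97611196-97611445, minus strand): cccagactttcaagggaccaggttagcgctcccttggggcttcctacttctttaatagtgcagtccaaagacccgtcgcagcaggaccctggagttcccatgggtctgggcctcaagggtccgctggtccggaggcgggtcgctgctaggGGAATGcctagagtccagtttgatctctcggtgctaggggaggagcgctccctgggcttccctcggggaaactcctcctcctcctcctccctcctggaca
Klk7 (chr7:43811044-43811293, plus strand): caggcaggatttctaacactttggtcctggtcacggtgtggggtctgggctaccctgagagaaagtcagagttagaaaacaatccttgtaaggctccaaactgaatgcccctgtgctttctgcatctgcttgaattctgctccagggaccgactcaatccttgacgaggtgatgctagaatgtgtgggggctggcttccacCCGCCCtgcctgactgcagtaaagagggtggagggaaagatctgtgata
Adh1 (chr3:138277335-138277493, plus strand): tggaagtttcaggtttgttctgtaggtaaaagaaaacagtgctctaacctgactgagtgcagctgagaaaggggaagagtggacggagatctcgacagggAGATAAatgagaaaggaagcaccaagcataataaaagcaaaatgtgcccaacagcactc
BC053393 (chr11:46571263-46571512, plus strand): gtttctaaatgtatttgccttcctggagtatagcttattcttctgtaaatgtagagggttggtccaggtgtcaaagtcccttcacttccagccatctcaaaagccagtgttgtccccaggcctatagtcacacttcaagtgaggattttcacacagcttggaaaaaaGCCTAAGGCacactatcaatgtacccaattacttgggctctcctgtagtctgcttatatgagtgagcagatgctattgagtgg

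The promoters shared no motif before their starts. Short motifs, 8 in all, were searched over 300 bases around each start (250 before and 50 after), and none of the 8 was found in more than 2 of the 4 genes. The GATA letters AGATAA were found for Adh1, 150 bases before the start, and for Klk7, 30 bases after it, and occurred in 11.2% of 32851 promoters of that length. The TEAD letters GGAATG were found for Tmprss2 alone (14.7% of all promoters), the AP-2 letters GCCNNNGGC for BC053393 alone (16.6%), the GC box GGGCGG for Klk7 alone (35.7%) and the E-box CACGTG for Adh1 alone, after the start (7.15%). The CDX letters TTTATG, the ETS letters CCGGAA and the TATA letters TATAAA were in none of the 4, and in 11.9%, 14.9% and 13.6% of all promoters. No 2 of these sets of letters overlapped where they were found. The 250 bases before the start of Tmprss2 were 61.6% G or C, those of Klk7 52.4%, of Adh1 44.8% and of BC053393 44.0%, beside a median of 52.4% over all promoters. BC053393 had 0 CG pairs there and Tmprss2 had 10, with a median of 6 over all promoters.

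Levels are given as CPM, a gene's UMIs divided by all UMIs of its embryo and multiplied by 1000000, and are compared within a gene only. Tmprss2 ranged in 2CB from 333 to 651 CPM (median 487, mean 494 ± 123, SD, n = 6) and in 4CB from 303 to 897 CPM (median 565, mean 609 ± 221). In 1C, 5 embryos had 0 UMIs and embryo 1 had 1 UMI, which was 6.86 CPM in that shallow library, and all 6 8CB embryos had 0. The lowest 4CB embryo was thus far above the single 1C count, as the choice of the gene requires.

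Klk7 had the widest range of the 4 genes. In 2CB it ranged from 13.9 to 785 CPM (median 295, mean 305 ± 287, n = 6), with embryos 2 and 4 at the low end, at 34 and 9 UMIs. In 4CB it ranged from 68.1 to 1302 CPM (median 294, mean 446 ± 437, n = 6), with embryo 2 at the top, at 204 UMIs. The medians of the stages were nearly equal while single embryos of 1 stage differed 56.4-fold in 2CB and 19.1-fold in 4CB. One 8CB embryo had 1 UMI (3.11 CPM), and the other 11 embryos of 1C and 8CB had 0.

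Adh1 ranged in 2CB from 231 to 669 CPM (median 453, mean 449 ± 143, n = 6). In 4CB it ranged from 43.9 to 904 CPM (median 64.4, mean 219 ± 340, n = 6). Of the 6 4CB embryos, 5 lay at 43.9 to 186 CPM, below the lowest 2CB embryo, and 4CB embryo 5 lay above the highest. One 1C embryo had 1 UMI (2.72 CPM) and the other 11 embryos of 1C and 8CB had 0.

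BC053393 ranged in 2CB from 211 to 675 CPM (median 319, mean 367 ± 178, n = 6) and in 4CB from 274 to 640 CPM (median 313, mean 366 ± 139, n = 6). The stages overlapped over nearly their whole range. It was the one member with 0 UMIs in all 12 embryos of 1C and 8CB.

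**Figure D1:**
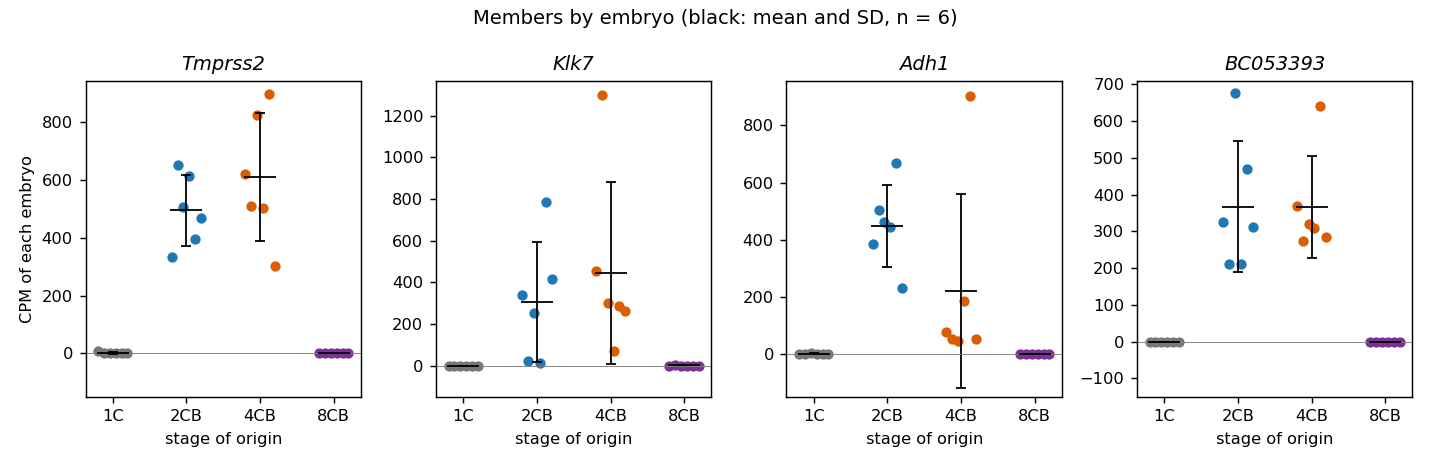
CPM of the 4 genes in each embryo (points) by stage of origin, with the mean and SD of 6 embryos in black. All 1C and 8CB embryos sit at or near 0, and 4CB embryo 5 stands above the other 4CB embryos for Adh1 (904 CPM) while embryo 2 does so for Klk7 (1302 CPM).

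Summed over the members, the pool of 2CB and 4CB held 10295 UMIs and that of 1C and 8CB held 3. Library depth differed between the groups: total UMIs over the 24 embryos ran from 70941 to 1507471 per embryo, and the medians of 2CB and 4CB were 519932 and 216325. The 2CB and 4CB embryos held 6658255 UMIs in all and those of 1C and 8CB 2952530. Pairs of UMIs given below are not adjusted for this. At the share they had in 2CB and 4CB, the total of 2952530 UMIs in 1C and 8CB would have held 1627 UMIs of Tmprss2, 828 of Klk7, 1126 of Adh1 and 984 of BC053393. The pooled level of Tmprss2 was 1627-fold higher in 2CB and 4CB (95% exact interval of the counts 292 to 64280), that of Adh1 1126-fold (202 to 44510) and that of Klk7 828-fold (148.5 to 32740). For BC053393 it was at least 328-fold higher, with 3 counts over all 12 embryos taken as the lower limit. Each of these 3 ratios rests on a single UMI in 1C and 8CB, and the intervals cover counting error only and are no test, since the genes were selected on this contrast.

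Each of 12 sample barcodes was used once in each pool. The single UMI of Tmprss2 in 1C was in the embryo that shared its barcode with 2CB embryo 1 (131 UMIs), that of Adh1 in the embryo sharing with 2CB embryo 3 (177 UMIs), and that of Klk7 in the embryo sharing with 4CB embryo 2 (204 UMIs). Those partners ranked 9, 5 and 2 among the 12 embryos for UMIs of the gene. The part of shared barcodes in these single counts was not tested.

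Other genes shared the pattern. Of 1377 genes with at least 1000 UMIs in 2CB and 4CB, 6 had at most 3 in 1C and 8CB: the 4 members, Elf5 with 1154 and 1, and Foxq1 with 1587 and 2. Elf5 and Foxq1 encode transcription factors, the former a trophoblast regulator. Foxq1 was unlike the members in that it had no UMI in 2 of the 12 embryos and reached 1243 CPM in 2CB embryo 4, whereas each member was counted in 12 of 12. Just outside the limit stood Slc15a2, a peptide transporter, with 1589 and 4 UMIs, Obp2a with 2029 and 4, Cdx1, a caudal-type homeobox gene, with 1205 and 4, and Gata2, a trophectoderm transcription factor, with 1567 and 7. Dusp6 had 1365 and 10 UMIs and the noncoding H19 1166 and 10.

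The comparison of 4CB with 2CB, which lay in the same pool, was not used by the rule and asks whether the members differed between these stages. None of the 4 members was called in edgeR's quasi-likelihood test with Benjamini-Hochberg adjustment at a false discovery rate of 0.1, in a comparison that called 0.0337% of the 5940 genes tested. The 2 genes called there were Phlda1 and the heat shock gene Hspa1b, both higher in 4CB. At an unadjusted p below 0.05 there were 263. All 4 members passed the filter on low counts, which they did through the 2CB and 4CB embryos alone.

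Tmprss2 was 0.27 higher in 4CB on the log2 scale (SE 0.29, 95% interval -0.33 to 0.87, edgeR adjusted p = 0.9999). Klk7 had a log2 fold change of 0.53 (SE 0.65, interval -0.81 to 1.87, edgeR adjusted p = 0.9999). Its sign rested on 4CB embryo 2, without which it was -0.20. BC053393 had a log2 fold change of -0.03 (SE 0.32, interval -0.70 to 0.64, edgeR adjusted p = 0.9999). The intervals span 0 for all 3 genes, and that of Klk7 is the widest.

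Adh1 had a log2 fold change of -1.12 in 4CB against 2CB (SE 0.55, interval -2.25 to 0.0036, edgeR unadjusted p = 0.0507, adjusted p = 0.9999). An exact two-sided permutation test of the mean log2 CPM gave a difference of -1.96 and p = 0.0260 before any correction for the 4 genes, where the smallest p possible was 0.00217. The value turned on 4CB embryo 5. Without that embryo the log2 fold change was -2.41 (SE 0.38, edgeR adjusted p = 0.00329), in a fit that called 5 genes or 0.0809% of those tested, and the other 5 4CB embryos averaged 81.9 ± 59.3 CPM against 449 in 2CB. Leaving out any other 2CB or 4CB embryo gave no call. Since embryo 5 was the one 4CB embryo on the other side, removing it favours a difference by construction, and both values are given.

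**Figure D2:**
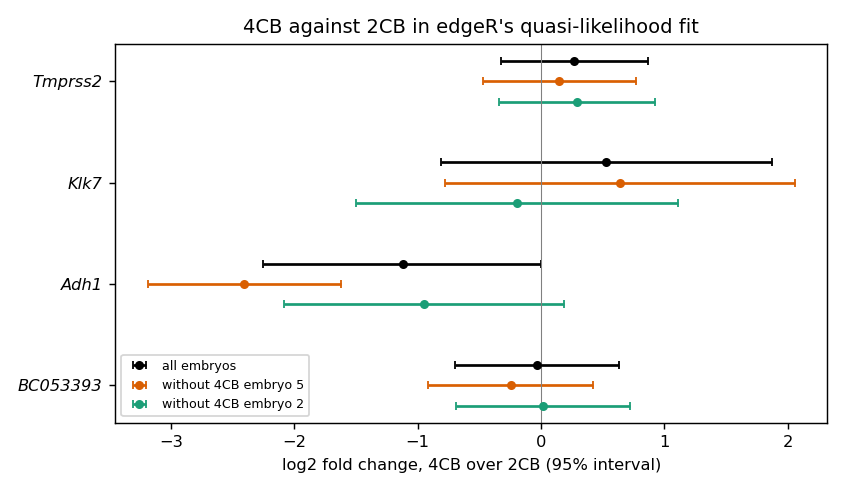
Log2 fold change of 4CB over 2CB for each gene with its 95% interval, from edgeR's quasi-likelihood fit with all embryos (black), without 4CB embryo 5 (orange) and without 4CB embryo 2 (green). Only the interval of Adh1 moves clear of 0, at -2.41 without embryo 5, and Klk7 changes sign without embryo 2.

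4CB embryo 5 was high for more than Adh1. It ranked 1st of the 12 embryos for Tmprss2 at 897 CPM and for Adh1 at 904 CPM, and 2nd for BC053393 at 640 CPM, but only 7th for Klk7 at 286 CPM. It was also the shallowest of the 12 libraries, with 132725 UMIs, and these levels rest on 119 UMIs of Tmprss2, 120 of Adh1 and 85 of BC053393. Its summed trophectoderm markers, 7037 CPM, lay within the 4CB range of 4823 to 8057, and its summed primitive endoderm markers, 1718 CPM, were the lowest of the 12 embryos, with the next at 1735. The part of its depth and of its marker levels in these values was not tested.

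Klk7 spread more between embryos than most genes. Over the 12 embryos the biological coefficient of variation that edgeR fitted was 0.824 for Klk7, above that of 99.3% of 5347 genes, and it stayed between 0.721 and 0.847 with any 1 embryo left out. It was 0.379 for BC053393 and 0.341 for Tmprss2, beside a median of 0.378. For Adh1 it was 0.693, above 98.2% of genes, but this rested on 4CB embryo 5, without which it was 0.418, above 66.2% of 5647 genes. A single embryo, 2CB embryo 5, held 66.6% of the Klk7 UMIs of its stage, but it also held 1045282 of the 4309109 total UMIs there.

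**Figure D3:**
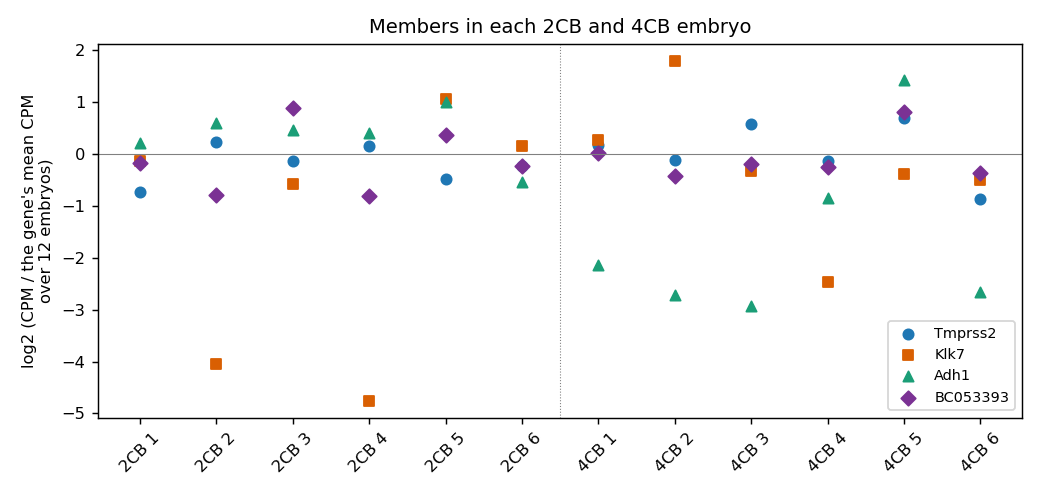
Each 2CB and 4CB embryo on the horizontal axis, with the log2 of its CPM over the gene's own mean across the 12 embryos on the vertical axis, 1 symbol per gene. Tmprss2 stays between -0.86 and 0.70 and BC053393 between -0.80 and 0.88, Klk7 drops to -4.06 and -4.75 in 2CB embryos 2 and 4 and to -2.46 in 4CB embryo 4, and Adh1 runs from -2.93 to -0.85 in the 4CB embryos other than embryo 5, which is at 1.44.

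The members did not rise and fall together across those embryos at a level the test could call. Relations were tested with 100000 permutations, 6 between members and 4 with the total UMIs of the embryo (10 in all), and the lowest adjusted p was 0.532. For Klk7 and BC053393, r was 0.47 (permutation p = 0.117, rho = 0.41, p = 0.192), and it was 0.72 within 2CB and -0.04 within 4CB. Without the 2 embryos farthest from the Klk7 median it was -0.03, so that value rests on those embryos. For Adh1 and BC053393, r was 0.38 (permutation p = 0.221, rho = 0.29, p = 0.355), 0.14 within 2CB and 0.87 within 4CB. It was 0.21 without 4CB embryo 5, a setting added after the values were seen. For Tmprss2 and Klk7, r was -0.27 (permutation p = 0.404, rho = -0.25, p = 0.431), with -0.88 within 2CB and 0.11 within 4CB. The strongest relation with depth was that of Klk7, with r = -0.56 (permutation p = 0.0571, adjusted p = 0.532, rho = -0.41, p = 0.193), and -0.35 without the 2 farthest embryos.

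Markers of the cell types that a blastocyst holds were set beside the members. The 20 trophectoderm markers summed to 4945 to 7646 CPM in 2CB and 4823 to 8057 in 4CB, but to 968 to 1799 in 1C and 1273 to 2260 in 8CB. Elf5 was at 0 in 1C and Gata2 at 0 in 8CB, and the other 19 markers had UMIs in each of these stages. The 17 primitive endoderm markers summed to 1718 to 4053 CPM over 2CB and 4CB and to 866 to 1744 over 1C and 8CB. Ttr was at 0 in every stage. Sox7, Foxa2, Lama1 and Fgfr4 were at 0 in 1C, and Sox17, Sox7 and Foxa2 in 8CB. Of these, Sox7, Fgfr4 and Foxa2 had only 9, 26 and 45 UMIs in 2CB and 4CB. The 14 epiblast markers overlapped among all stages, at 1337 to 3327 CPM in 2CB and 4CB and 1484 to 3095 in 1C and 8CB, with Fgf4 and Prdm14 at 0 in 1C.

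Single markers did not all follow these sums. The comparison of 2CB and 4CB with 1C and 8CB called 31.3% of 5940 genes higher and 24% lower. Of 18 trophectoderm markers tested, 14 rose and 2 fell. The latter were Hand1, a transcription factor of trophoblast giant cells, with a log2 fold change of -4.64 (SE 0.615, edgeR adjusted p = 4.46e-07), and Tfap2c, with -0.74 (edgeR adjusted p = 0.0104). Tead4 had -0.01 and was not called. Some markers passed the filter through 1 side alone, which favours a call. Examples are Elf5, Gata2, Lama1 and Sox17 through 2CB and 4CB, and Hand1 through 1C and 8CB. Of 10 primitive endoderm markers tested, 8 rose and 1 fell, Gata6, with -0.67 (edgeR adjusted p = 0.00991). Of 8 epiblast markers tested, 3 rose and 4 fell, so their sum, to which Utf1 gave 7702 and 2204 UMIs, covers changes in both directions. With DESeq2 3 rose and 3 fell, and with no filter 6 of 14 rose and 3 fell, the list median being -0.50 with the filter and 0.62 without it, where the medians of all genes were 0.12 and 0.34. Esrrb had -2.02 (edgeR adjusted p = 4.87e-06) and Nanog -1.49 (edgeR adjusted p = 0.00170), while Sox2 had 1.96 (edgeR adjusted p = 0.00244). The part of these differences in the members' absence was not tested.

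Within the 2CB and 4CB embryos none of 12 relations between a member and a summed marker list passed correction. The lowest adjusted p was that of Klk7 with the epiblast markers by rank, with rho = -0.73 (permutation p = 0.0100, adjusted p = 0.120), where r was -0.46 (p = 0.116). Within the stages that r was -0.59 in 2CB and -0.38 in 4CB, and without the 2 farthest embryos it was -0.35. BC053393 and the trophectoderm markers had r = 0.49 (permutation p = 0.0987, adjusted p = 0.418) and rho = 0.59 (p = 0.0489, adjusted p = 0.293). These relations were added after the data were seen.

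The families of the members were then counted in the comparison of 2CB and 4CB with 1C and 8CB, which called 31.3% of all genes higher and 24% lower and in which the median log2 fold change of all genes was 0.12. With so few members of each list past the filter, their counts are a description beside those shares. These genes were not part of the rule, but this contrast is also that of the pools. Of 19 other type II transmembrane serine proteases, 9 had any UMI and 1 passed the filter. That was St14, matriptase, an epithelial protease that activates other proteases, with a log2 fold change of 0.88 (SE 0.34, edgeR adjusted p = 0.0321). It had 542 and 129 UMIs, and so was measured in all stages, unlike Tmprss2. None of the other proteases of that type had 50 UMIs over the 24 embryos.

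Of 25 other kallikreins, 9 had any UMI and 0 passed the filter. The 4 with at least 10 UMIs in 2CB and 4CB, all near Klk7, were Klk9 with 60, Klk5 with 43, Klk6 with 30 and Klk8 with 13, each with 0 in 1C and 8CB. They were picked for counts in the group where they are high, so their calls as higher in a fit with no filter are no test of them. That fit called 14.2% of 23171 genes higher and 9.61% lower. Klk13 went the other way, with 3 UMIs in 2CB and 4CB and 8 in 1C and 8CB, the 8 all in 1C embryo 1.

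A further list held 19 serine proteases and protease-activated receptors, with tryptases and prostasin among them. Of these, 11 had any UMI, 3 passed and 2 rose, where 31.3% of all genes did. Prss8, prostasin, an epithelial protease that works with matriptase, had 194 and 6 UMIs and a log2 fold change of 3.79 (SE 0.54, edgeR adjusted p = 1.33e-06). F2rl1, a receptor activated by proteolytic cleavage, had 274 and 10 UMIs and a log2 fold change of 4.30 (SE 0.64, edgeR adjusted p = 2.74e-06). Both genes passed the filter through the 2CB and 4CB embryos alone, which favours a call of higher. Prss36 had 0.09. Below the filter, F2r had 190 and 9 UMIs and Prss35 106 and 3. Of 15 inhibitors of the HAI and Spink families, 2 passed. Spint1, an inhibitor of matriptase, rose by 0.82 on the log2 scale (SE 0.25, edgeR adjusted p = 0.00808), and Spint2 had -0.11 (edgeR adjusted p = 0.730). Below the filter, Spint5 had 46 and 6 UMIs, and Spink2, with 6 and 38, was called lower in the fit with no filter (log2 fold change -3.61, edgeR adjusted p = 5.90e-05).

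Of 35 genes of alcohol and retinol metabolism other than Adh1, 28 had any UMI, 7 passed the filter, 2 rose and 3 fell, beside the 31.3% and 24% of all genes given above, with a list median of -0.46. Adh5, the class III alcohol dehydrogenase that handles formaldehyde, rose by 1.57 on the log2 scale (SE 0.31, edgeR adjusted p = 0.000117), and Aldh2, the mitochondrial aldehyde dehydrogenase, rose by 1.93 (SE 0.35, edgeR adjusted p = 4.31e-05). Rdh10, which oxidises retinol to retinal, had a log2 fold change of -3.09 (SE 0.44, edgeR adjusted p = 1.58e-06). The retinoic acid receptor Rarg had -3.18 (edgeR adjusted p = 1.11e-07) and the retinoid receptor Rxra -1.61 (edgeR adjusted p = 0.000270). Genes of the same list thus moved in both directions. In the fit with no filter, in which the median of all genes was 0.34, 8 of 28 rose and 5 fell, beside 14.2% and 9.61% of all genes, with a list median of 0.52. Rdh13 and Rxrb passed the filter with log2 fold changes of 0.39 and -0.46 and were not called. Below the filter, Rxrg had 146 UMIs in 2CB and 4CB and 0 in 1C and 8CB, and Rdh11 103 and 9. Rara had 52 and 7, and Crabp2 55 and 25, the latter being 8.26 and 8.47 CPM of the summed UMIs. Aldh1a3, with 20 and 50 UMIs, and Rarb, with 23 and 30, were called lower in the fit with no filter (log2 fold changes -2.26 and -2.21, edgeR adjusted p = 0.00168 and 0.0117).

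**Figure D4:**
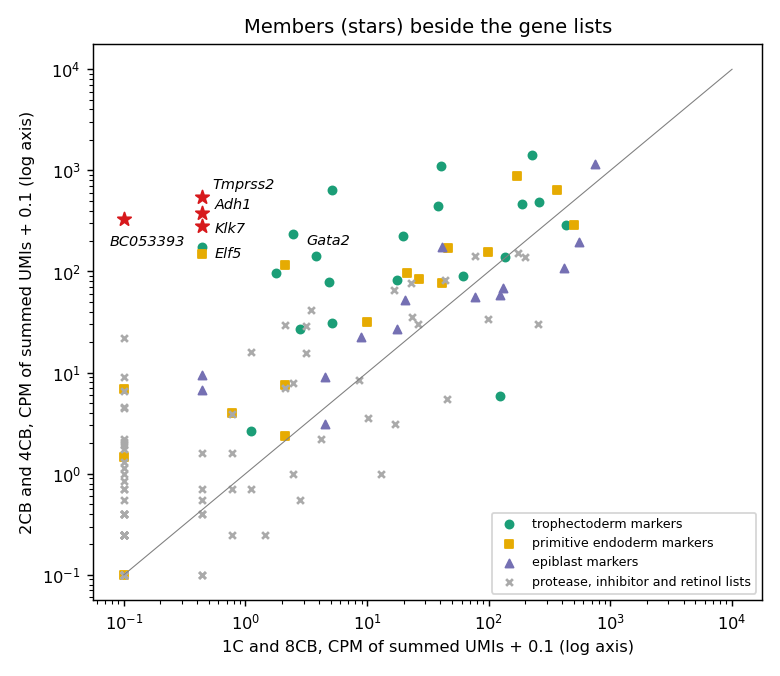
CPM of the summed UMIs plus 0.1 in 1C and 8CB (horizontal) and in 2CB and 4CB (vertical), both on log axes, for the 4 members (stars) and the genes of the lists, with the line of equal levels. The members stand at the left edge among the highest points there, and Elf5 lies beside Klk7. The protease, inhibitor and retinol lists share 1 symbol, and their genes lie on both sides of the line.

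The genomic neighbours of the members differed from locus to locus. Next to Klk7, the kallikreins Klk8 and Klk6, 7468 and 8140 bases away, had the member's pattern at low counts, as given above, whereas 2310002F09Rik, 13336 bases away on the other strand, had 10 and 8 UMIs. Next to BC053393, the noncoding Gm12171, 14469 bases away on the same strand, had 123 UMIs in 2CB and 4CB and 0 in 1C and 8CB, the noncoding Gm4926 had 566 and 3, and Gm12169 had 70 and 3. Dppa1, counted among the trophectoderm markers and 18540 bases away on the other strand, had 1506 and 58 UMIs and a log2 fold change of 3.59 (SE 0.47, edgeR adjusted p = 3.75e-07). A further neighbour, Timd2, was more abundant in 1C and 8CB, at 1344 CPM of the summed UMIs against 380, so the pattern did not extend over all genes there.

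Tmprss2 stood in a sparse stretch. The genes nearest to it with at least 10 UMIs were Fam3b, 59748 bases away with 13 and 0 UMIs, and Ripk4, 130738 bases away with 75 and 3. Beyond them, Prdm15 had 52 and 16 UMIs and Sh3bgr, 1335751 bases away, 6 and 6. Next to Adh1 the nearest gene of its family with at least 10 UMIs was Adh5, 152395 bases away, with 506 and 68 UMIs. Trmt10a, 101170 bases away on the other side, had 174 and 109 UMIs and was not called (log2 fold change -0.32, edgeR adjusted p = 0.537). Mttp had 25 and 15 UMIs, or 3.755 and 5.08 CPM of the summed UMIs. Metap1, with 1918 and 634 UMIs, was not called either (0.25, edgeR adjusted p = 0.336).

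Adh1 overlaps Gm16559, which is annotated antisense to it. Gm16559 had from 2 to 26 UMIs in each of the 6 2CB embryos (18.8 ± 16.4 CPM, n = 6), and 1 UMI in all 4CB embryos together, in embryo 2. 4CB embryo 5, with 120 UMIs of Adh1, had 0 of Gm16559, and 1C and 8CB had 0. The strand setting of the counting is not given in the sources used here, so reads of the pair may not be told apart. In a fit with no filter, which called 0.207% of 23171 genes between 4CB and 2CB, Gm16559 had a log2 fold change of -4.58 (SE 1.15, edgeR adjusted p = 0.0428) and Adh1 of -1.31 (SE 0.35, edgeR adjusted p = 0.0992). Both were called there, but the SEs of the 4 members in that fit all lay between 0.32 and 0.35. With the filter they were 0.29 for Tmprss2 and 0.65 for Klk7. Calls without the filter thus rest less on each gene's own spread.

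**Figure D5:**
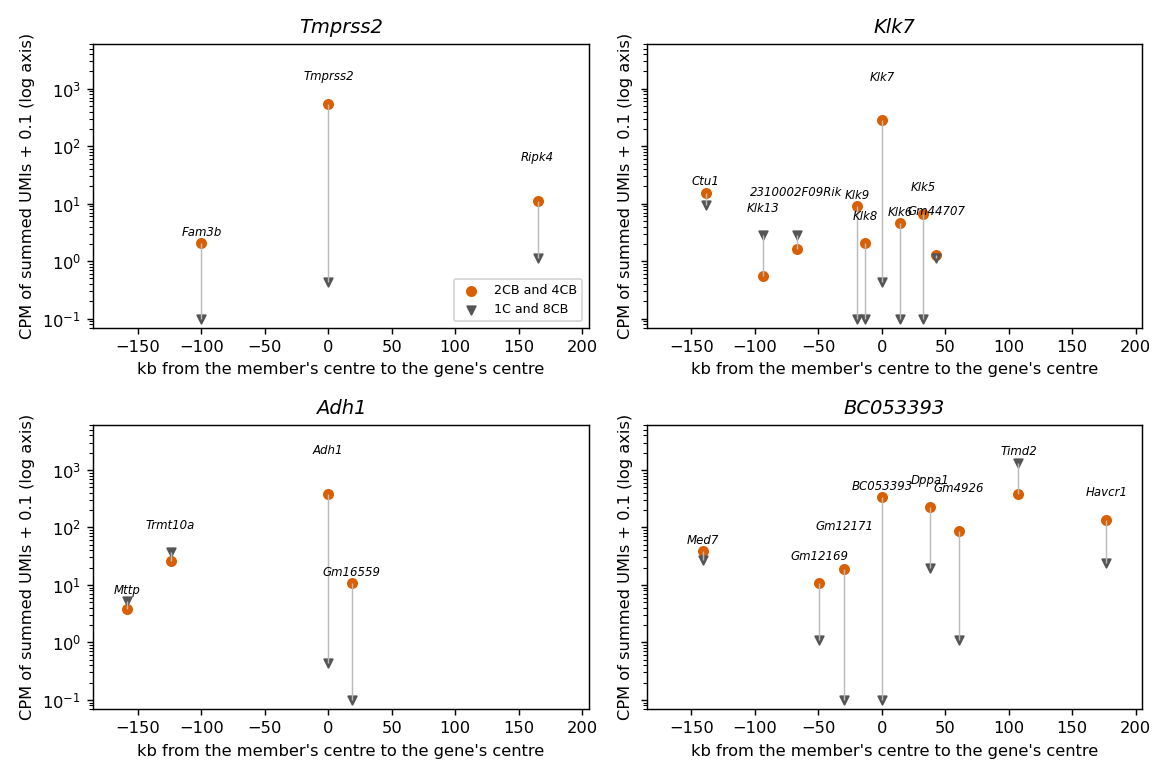
CPM of the summed UMIs plus 0.1 (log axis) of genes with at least 10 UMIs around each member, against the distance between gene centres in kb, for 2CB and 4CB (orange circles) and 1C and 8CB (grey triangles). Klk5, Klk6, Klk8 and Klk9 around Klk7 and Gm12171 and Gm4926 around BC053393 fall to or near the bottom edge in 1C and 8CB, while Klk13, 2310002F09Rik, Mttp, Trmt10a and Timd2 are higher there.

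Over all 24 embryos the genes whose log2 CPM was most like that of the members (mean of 4 Pearson correlations, among genes that passed the filter) were Slc15a2 at 0.96, the calcium-binding Cib2 at 0.94, the transcriptional inhibitor Id2 at 0.94, the galectin Lgals1 at 0.94 and Gata2 at 0.94. Obp2a, Epn3, Dusp6, Mgst3 and Gm2a followed at 0.93. The 24 points share the division by pool, on which the members were chosen, so these correlations largely follow that division. Cib2, with 402 and 0 UMIs, and Mgst3, with 253 and 0, were also at 0 in every 1C and 8CB embryo.

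Over the 12 embryos of 1 pool the most alike genes were others, and each member had its own. They were Pi4k2a (r = 0.84), Hmgb2 (0.83) and Sp1 (0.83) for Tmprss2, and Krcc1 (0.94), Ktn1 (0.89) and Pcf11 (0.89) for Klk7. For Adh1 they were Tmem185a (0.89), the mitochondrial creatine kinase Ckmt1 (0.88) and the matrix protein gene Efemp1 (0.83), and for BC053393 Otud1 (0.85), Ccni (0.80) and Slmap (0.78). These are the highest correlations among all genes that passed the filter over 12 embryos and are given as a description. Of the 12 genes, Efemp1 alone had 0 UMIs in 1C and 8CB, with 201 in 2CB and 4CB, at 49.2 ± 22.1 CPM in 2CB and 17.8 ± 32.3 in 4CB (n = 6 each).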

How the data were processed

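The authors made CEL-Seq2 libraries of single embryos, aligned them to GRCm38 with HISAT2, counted with HTSeq 0.6.1 and deposited UMI counts per gene. DESeq2 1.10.1, also in the submitters' notes, served their later test. The strand setting and annotation release are not given in the sources used here. The largest count, 53029, is above the 4096 sequences that a 6-base UMI allows, so counts may not all be separate molecules. A table of sample barcodes (12 of 6 bases) was used for shared barcodes, and 24 further columns of the count table were not used. Of 52366 genes, 51633 had a symbol in GENCODE M21. Counts were tested with edgeR 4.0.16 (R 4.3.3; filterByExpr, TMM, quasi-likelihood, false discovery rate 0.1, fitted over all 24 embryos), with DESeq2 1.42.0 as an alternative, and the fit was tested on simulated data. Correlations were computed on log2 CPM (prior count 2) with SciPy 1.17.1. Named genes were the members, list genes that were called or had at least 50 UMIs, the 10 genes most like the members and 3 most like each, genes with the same on-off counts, the 2 nearest neighbours per side, overlapping genes and all genes called between 4CB and 2CB. Of the 3 marker lists, only markers at 0, those against their list's sum and a few others were named. Those, Timd2, Klk13 and Spink2 were picked after their values were seen. Members and lists were chosen with earlier results of these data known.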

Additional observations from a re-analysis of the deposited data

Results flagged for a closer look

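The CPM of the 6 embryos of a stage were examined in the 11 groups, each of 1 gene and 1 stage, with any UMI. In 3 of them, lone UMIs aside, 1 embryo stood farther from the rest than Dixon's 95% critical value allows. Chance gives that in about 1 group in 20 for normally distributed values, whereas plain CPM and not its log2 was used here. All 3 were in 4CB: embryo 2 had 1302 CPM of Klk7 with the next embryo at 453, embryo 5 had 904 CPM of Adh1 with the next at 186, and embryo 5 had 640 CPM of BC053393 with the next at 370. The same measure also marked the single UMIs in groups otherwise at 0, namely Tmprss2 in 1C embryo 1 (6.86 CPM), Adh1 in 1C embryo 3 (2.72 CPM) and Klk7 in 8CB embryo 2 (3.11 CPM). A lone count among zeros passes it by construction, and the choice of the genes favours such groups, so these 3 say nothing about the embryos.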

How the results depend on the processing

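Of the alternatives other than leaving out 1 embryo, 72 of 100 values kept direction and side of the threshold or, for counts of genes, stayed within 1.5 times the reported count, as did 98 of 115 with 1 embryo left out. Some of those 100 used fewer embryos, as with the 2CB and 4CB embryos fitted alone or the 2 farthest embryos left out. Where a value changed otherwise, the cause was not tested. For Adh1 between 4CB and 2CB, the log2 fold change was -1.31 with no filter (edgeR adjusted p = 0.0992) and the exact permutation difference -1.96. The SE of Adh1 was 0.35 with no filter and 0.55 with it. The range over left-out embryos was -2.41 to -0.87, with a call without 4CB replicate 5 alone. For BC053393, near 0 throughout, the sign changed with DESeq2 (0.0062), its size factors (0.0060), thinning to equal depth (0.13) and the permutation test (0.020), and left-out embryos gave -0.25 to 0.19. Left-out embryos gave -0.20 to 1.09 for Klk7. Genes called between 4CB and 2CB numbered 10 with DESeq2, 48 with no filter, 1 after thinning and 1 to 6 with an embryo left out. Between the pools, 3298 were higher and 2227 lower with no filter, and 598 and 587 after thinning, when fewer genes were tested.

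With no filter, which tested 23171 genes and called 23.8%, the calls were 4 of 9 kallikreins, 2 of 9 type II transmembrane serine proteases, 3 of 9 inhibitors (1 of them lower), 13 of 28 retinol genes (8 higher and 5 lower), 4 of 11 genes of the further protease and receptor list and 14 of 16 primitive endoderm markers. After thinning to equal depth, no other kallikrein or type II protease and no gene of the further protease and receptor list passed the filter. Of 2 inhibitors that passed, 1 was called higher, and of 2 retinol genes 1 was called lower. Of 4 primitive endoderm markers 3 were called higher and 1 lower. Genes with the members' counts numbered 10 at 500 and 3 UMIs and 12 at 1000 and 10. By rank, 2 of the 10 genes most like the members were kept. Without the 2 farthest embryos, r was -0.48 for Tmprss2 and Adh1, -0.40 for Tmprss2 and BC053393 (rho -0.049) and -0.027 for Klk7 and BC053393, and without 4CB replicate 5 it was -0.11 and -0.22 for the pairs of Tmprss2 with Adh1 and with BC053393.

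With the embryo number as a replicate block, Adh1 had -1.95 (edgeR adjusted p = 0.342), BC053393 0.026, and 1 gene was called. The number does not pair these embryos: same-numbered embryos' deviations correlated at -0.19 to 0.07, and 1 of the 6 2CB embryos was most like the 4CB embryo of its own number.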
